A study of Mus musculus with 12 samples.

Results

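Open chromatin was examined at 10 genes that control cell division. They included the inhibitors of cyclin-dependent kinases (CDKs) Cdkn1a, Cdkn1b, Cdkn1c, Cdkn2a, Cdkn2b, Cdkn2c and Cdkn2d. The others were the tumour suppressor Trp53, its ubiquitin ligase Mdm2, and the retinoblastoma gene Rb1. The data were lists of peak summits from ATAC-seq, in which a transposase cuts accessible DNA, of hematopoietic stem cells (HSCs) sorted out of mouse marrow. A region was made by merging windows of 250 bp on each side of every summit with a score of at least 3 in any of 12 lists. It was assigned to a gene when its highest summit lay in the gene body or within 10 kb of it, in the GENCODE annotation of mouse build mm10. This gave 35 regions at the 10 genes, of 71006 in all. Of the 21 regions that could be tested, 1 passed the test of age, against 2.72% of all regions tested. It lay past the 3′ end of Rb1 and ranked lower in aged HSCs of both genotypes. In either genotype alone, or with the length of the lists as a covariate, it did not pass. None passed a test of genotype, against 0.0% of all regions tested.

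The libraries fell into 4 groups of 3, from C57BL/6 mice that were wild-type (WT) or lacked Mlkl in every cell (Mlkl-/-). Mlkl encodes the pseudokinase that carries out necroptosis, an inflammatory form of cell death. Young WT and Young Mlkl-/- mice were 3 months old, and Aged WT and Aged Mlkl-/- mice were 18 months old. No group had been treated. Per the study's methods, HSCs were sorted as Lin-, c-Kit+, Sca-1+, Flk2-, CD48- and CD150+ cells. Each library came from cells of several mice pooled together, with more mice in a young pool. The methods state that all HSC replicates were handled on the same day. The transposed DNA was then stored frozen before libraries were made, and the day of that step is not given. Both sexes had been used in the study, and the labels give no sex for a pool. Replicates were separate pools, so p-values measure the spread between pools.

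The genes act on a common path. The CIP/KIP proteins p21 (Cdkn1a), p27 (Cdkn1b) and p57 (Cdkn1c) bind cyclin-CDK complexes and block them. The INK4 proteins p16 (Cdkn2a), p15 (Cdkn2b), p18 (Cdkn2c) and p19 (Cdkn2d) bind CDK4 and CDK6 and keep cyclin D away. Without active CDKs, RB stays unphosphorylated and holds E2F factors off their target genes. Cdkn2a also encodes ARF, from its own first exon, which restrains MDM2 and so frees p53. p53 in turn activates Cdkn1a and Mdm2. In HSCs p57 and p27 are known for keeping the cells quiescent, and p18 for limiting self-renewal.

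The files held summits and scores, not reads. Scores are q-values of the summits as −log10, so 3 stands for a q-value of 0.001. Between 35714 and 61495 summits per library had such a score, with 35714 to 56368 in young and 47032 to 61495 in aged libraries. Read depth is unknown, which leaves counting error without an interval. A region was "called" in a full list when any of these summits lay in it. Since longer lists hold more calls, each list was also reduced to its 35714 highest summits, called here the list of equal length. The percentile of a region is its place among the regions called in a list, with 100 the highest score. For tests, all regions were ranked in each list of equal length, with a tied bottom place for those without a call, and the ranks were mapped to normal scores. A change is thus a difference in normal score, in units of the standard deviation of a normal curve. A region not called sat at -0.57 to -0.52 on that scale. Adjusted p-values are from limma with Benjamini-Hochberg correction over all regions tested, and a region passed at an adjusted p under 0.01. The sorted population was checked by calls at gene starts. The stem cell genes Kit, Hlf and Meis1 were called in 12 of 12 full lists, Procr in 9, Gata2 in 8, Ly6a in 6, Mecom in 1 and Slamf1 in 0. None of 5 B cell and none of 5 neutrophil and monocyte starts was called in any list, while Lck was the T cell start called, in 1 list. Of the erythroid starts Epor was called in 12 lists and Hbb-bt in 3. Of the stromal and endothelial starts Pecam1 was called in 12, Col1a1 in 11, and Lepr and Cxcl12 in 2 each. Summits at the Y-linked genes Ddx3y, Uty, Eif2s3y or Kdm5d occurred in 3 young libraries and in 0 aged ones. The sex of the pools is not known, so age and sex cannot be fully told apart in the comparisons of age.

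Of the 35 regions, 15 were called in all 12 full lists, or 42.9%, against 28.6% of all regions. In the lists of equal length 13 were called in all 12, or 37.1% against 21.9%. In none of these lists were 9 of the 35 called, beside 18743 of the 71006 regions in all. The number of the 35 regions called per full list was 19.7 ± 1.53 in Young WT (mean ± SD, n = 3), 22 ± 5.0 in Young Mlkl-/-, 22.7 ± 1.15 in Aged WT, then 24 ± 2.65 in Aged Mlkl-/-. The full lists of the 4 groups overlapped, from 17 calls in Young Mlkl-/- replicate 3, the shortest list, to 27 in Young Mlkl-/- replicate 2. On average 2.5 more regions were called in an aged than in a young full list, less than the pooled SD of 2.87. This was 12% more, while over all regions an aged full list held 44663 calls on average and a young one 36322, or 23.0% more. At equal length the difference turned over, with 1.5 fewer in aged lists. Over all regions, lists of equal length held 28428 to 30856 calls in young and 28538 to 30676 in aged libraries, so the ages overlapped. Rank at equal length was used for the comparisons.

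**Figure D1:**
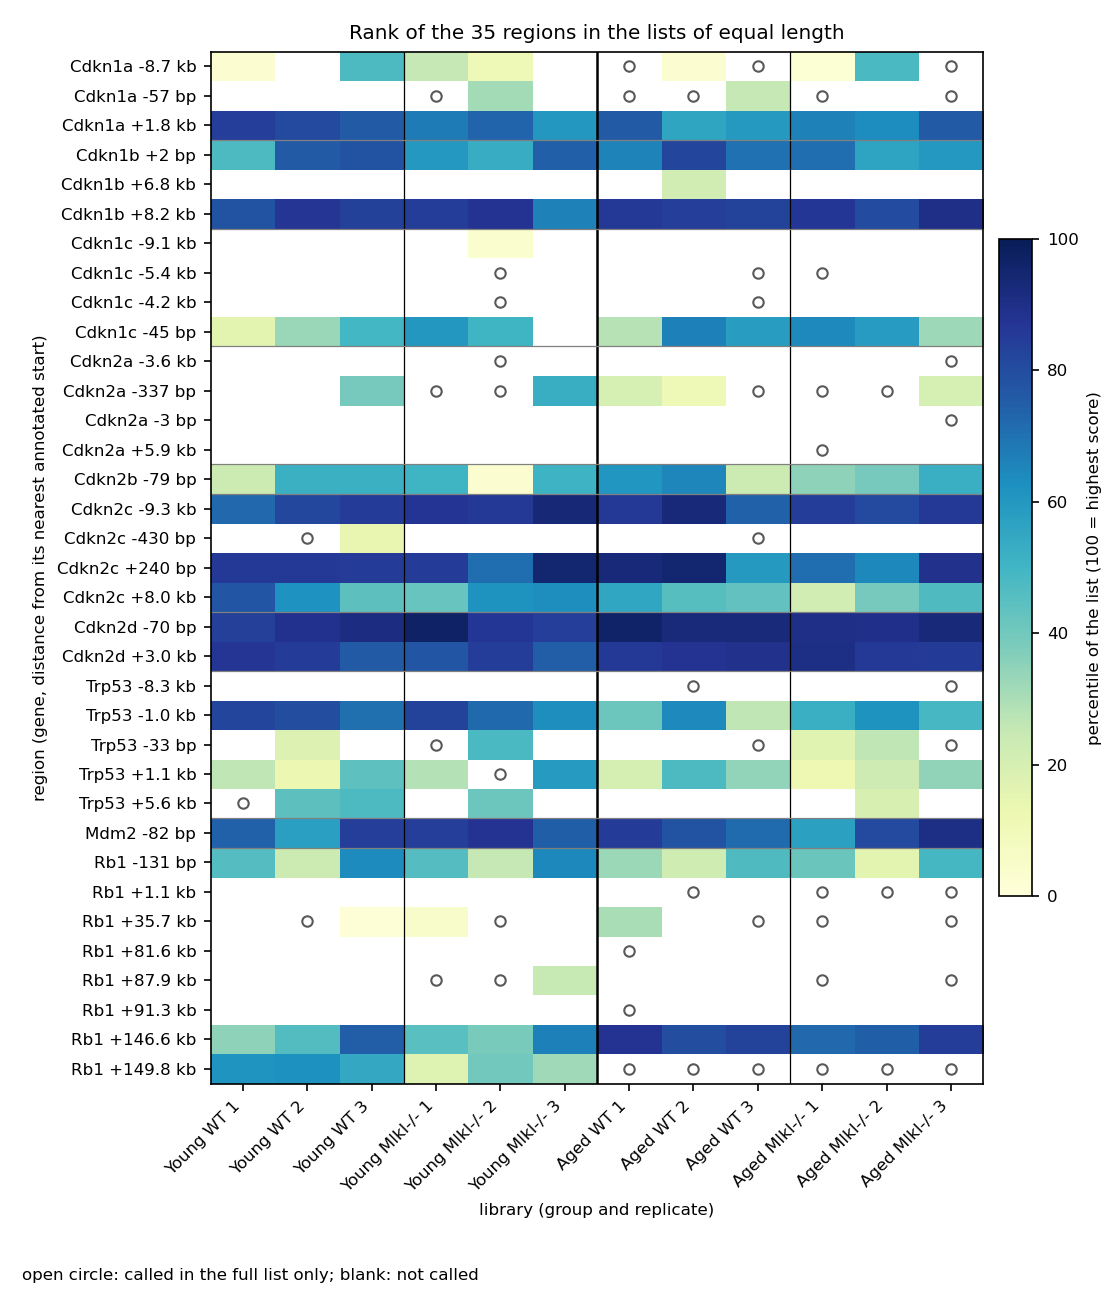
Percentile of each of the 35 regions (rows, named by gene and distance from its nearest annotated start, with plus for downstream) in the lists of equal length of the 12 libraries (columns), as colour from 0 to 100, with open circles for a call in the full list only and blanks for none. The 13 rows filled across all 12 columns include the starts of Cdkn1b, Cdkn2b, Cdkn2c, Cdkn2d, Mdm2 and Rb1, and the bottom row, the distal Rb1 region, is filled in 6 of 6 young and 0 of 6 aged columns.

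Starts separated the genes. A region within 1 kb of an annotated start was called in all 12 full lists for 6 of the 10 genes, against 49.5% of 21840 protein-coding genes. By median percentile over the lists of equal length the order was Cdkn2d (90.3), Cdkn2c (85.5), Mdm2 (79.3), Cdkn1b (68.1), Cdkn2b (50.9), Cdkn1c (50.5, called in 11 lists) and Rb1 (43.7). Neighbours in this order overlapped over the 12 libraries in each case. The starts of Cdkn2a, Trp53 and Cdkn1a were called in 10, 7 and 7 full lists and in 5, 4 and 2 of the lists of equal length. Cdkn2d thus stood at the top and Cdkn1a at the bottom. By single start, that of p16 was called in 1 full list, and the first annotated start of Cdkn1a in 0.

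**Figure D2:**
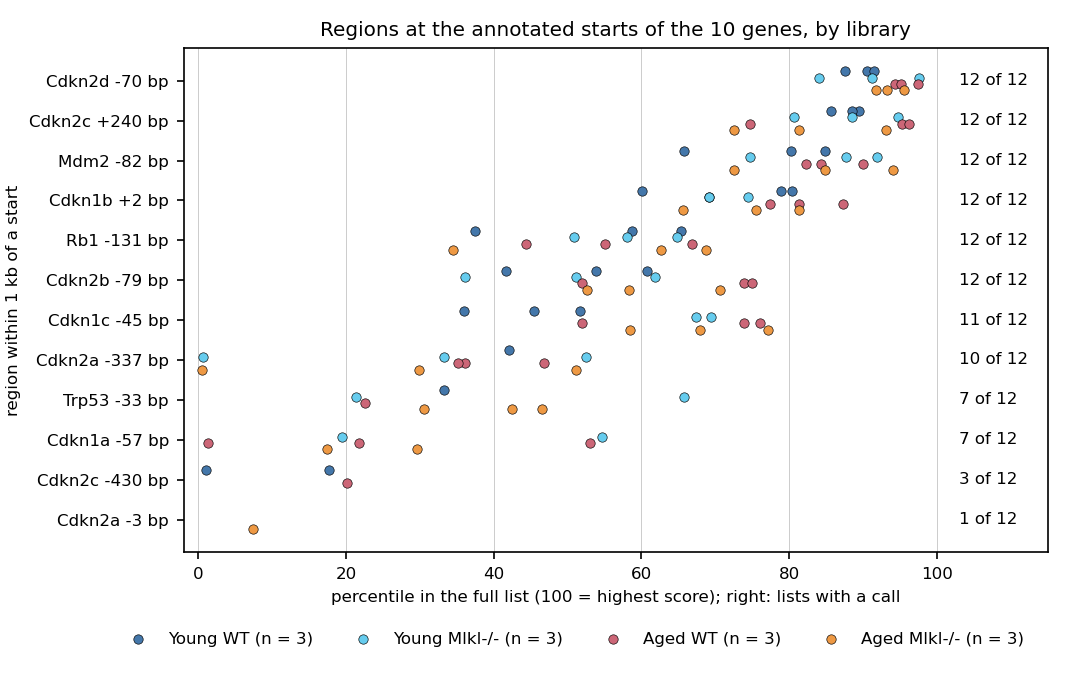
Percentile in the full list (x axis, 100 the highest score) of the 12 regions within 1 kb of an annotated start of the 10 genes (y axis), with 1 point per library that called the region, coloured by group, and the number of lists with a call at the right. The Cdkn2d start lies at 84.0 to 97.6 in all 12 lists, and the p16 start of Cdkn2a, in the bottom row, has 1 point, from an Aged Mlkl-/- library.

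The CIP/KIP genes differed in where their chromatin was open. At Cdkn1a, whose p21 protein is the classical product of p53 activity, the leading region was not at a start but in an intron, 1.8 kb downstream of an internal start, at chr17:29095292-29095843. It was called in all 12 lists of equal length, at percentiles of 84.3, 80.7 and 76.1 in Young WT, 67.9, 73.2 and 60.5 in Young Mlkl-/-, 76.0, 55.6 and 59.4 in Aged WT, then 66.2, 63.6 and 75.8 in Aged Mlkl-/-. The 3 Young WT values were the highest 3 of the 12, and the groups by age overlapped. A region 57 bp upstream of the internal start of Cdkn1a (chr17:29093346-29094020), which also overlaps an exon of AC167363.2, was called in the full lists of 0 Young WT, 2 Young Mlkl-/-, 2 Aged Mlkl-/- and 3 Aged WT libraries. At equal length it remained in 2 lists, at percentiles of 31.2 (Young Mlkl-/- replicate 2) and 25.1 (Aged WT replicate 3). A further region 8.7 kb upstream of the first annotated start was called in 10 full and 7 equal-length lists, at percentiles from 1.76 to 47.7 in the latter. Its age change was -0.20 ± 0.30 and that of the intronic region -0.17 ± 0.12 (adjusted p = 0.759 and 0.421 in limma). The middle 200 bp of the intronic region, from the RefSeq genome of build mm10 like all sequences here, are shown because this element, rather than a start, carried the steady signal of the gene. Capitals mark letters of the AP-1 and SP/KLF motifs, which are listed with their background further on.
Cdkn1a intron, chr17:29095493-29095692, plus strand: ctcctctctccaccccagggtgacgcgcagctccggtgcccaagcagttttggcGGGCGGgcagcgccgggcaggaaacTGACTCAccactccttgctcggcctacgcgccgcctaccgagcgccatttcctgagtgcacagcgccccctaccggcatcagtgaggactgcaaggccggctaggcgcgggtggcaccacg

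Letters of a p53 response element lie just upstream of the first annotated Cdkn1a start, and are shown because p21 is the best known p53 target. The p53 element was taken as a pair of 10-base boxes with no spacer and at most 2 mismatches in its 20 bases. The C(A/T)(A/T)G core of each box had to match in full. A search found 7 such elements over the 10 loci, and 1 of them lay 51 bp before that start.
Cdkn1a p53 element, chr17:29090928-29090947, plus strand: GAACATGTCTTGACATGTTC
It had 1 mismatch. The nearest deposited summit of any score in any library was 2.63 kb away, so no peak was called at the element in any of the 12 lists. The other matches were 1 at Cdkn2b, 3 at Mdm2 and 2 at Rb1, and 1 of the 7, at Rb1, fell in a region. This region, 87.9 kb into Rb1 at the start of the nested gene Lpar6, was called in 5 full lists, 3 of them Young Mlkl-/- and 2 Aged Mlkl-/-, at percentiles from 0.204 to 29.3, and in 0 WT lists. Of all regions 0.0408% were called in 0 WT and at least 5 Mlkl-/- full lists, a pattern set after the values were seen, and this was the 1 of the 35 with it. At equal length 1 call was left, so the region was not tested.

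**Figure D3:**
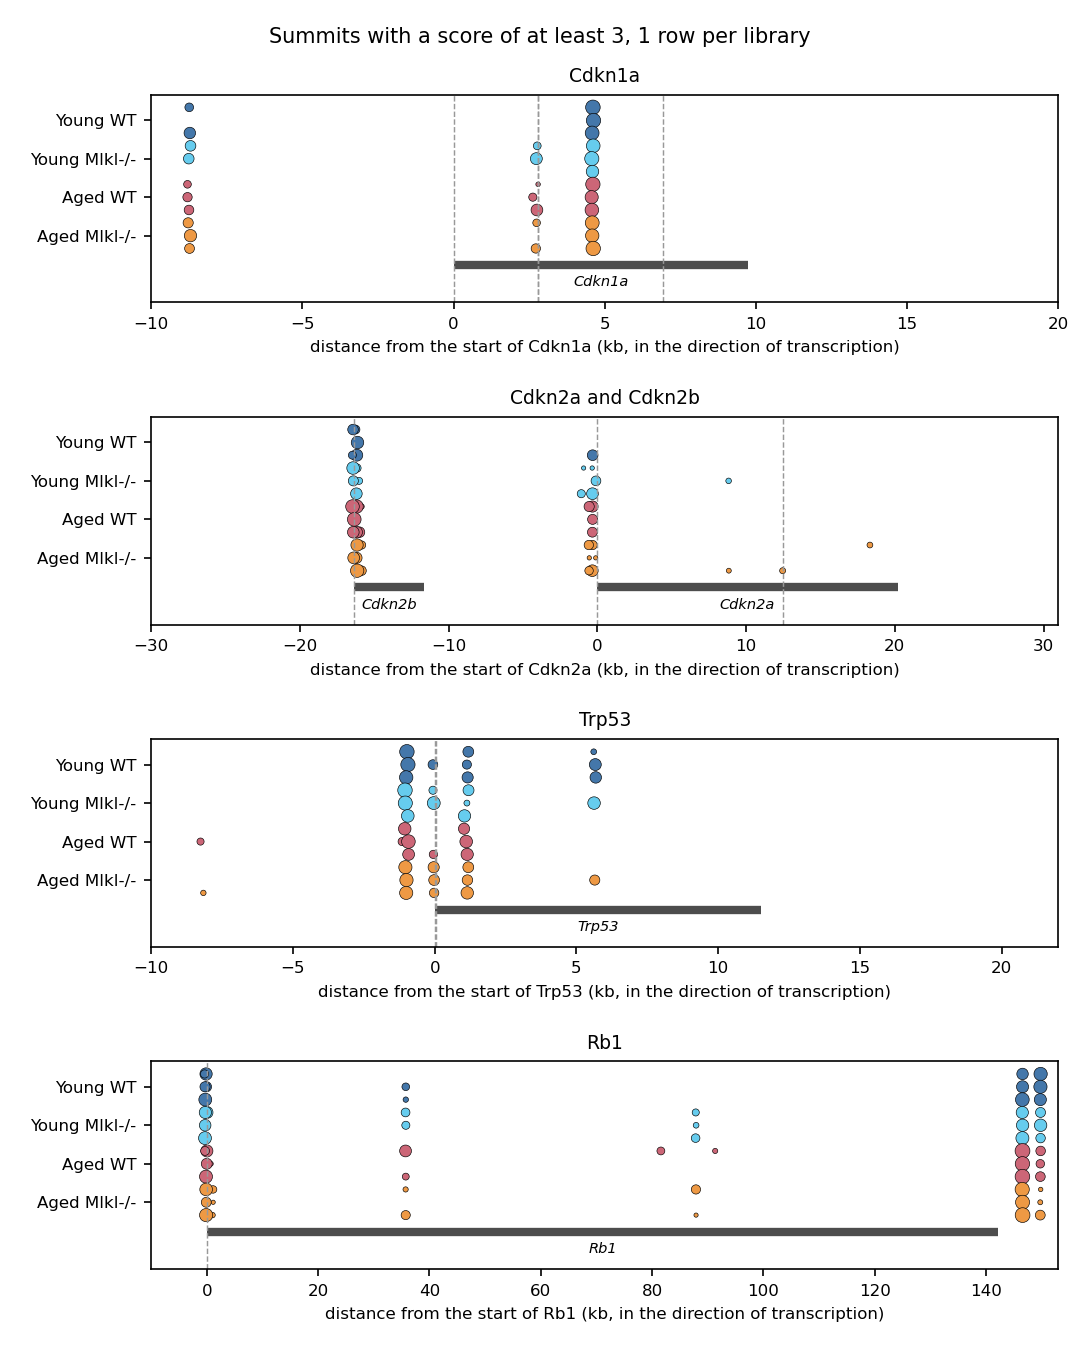
Summits with a score of at least 3 in the 12 libraries (1 row each, coloured by group) against distance in kb from the start of the gene, in the direction of transcription, at Cdkn1a, at Cdkn2a with Cdkn2b, at Trp53 and at Rb1, with larger points for a higher percentile among the summits of the full list, grey bars for gene bodies and dashed lines for annotated starts. At Cdkn1a the intronic summits stand in all 12 rows and none lies at the first start. At Rb1 the right-hand column, the distal region, has smaller points in the aged rows than in Young WT. The points of Young Mlkl-/- replicates 1 and 3 (percentiles 38.1 and 33.5) are close in size to the largest aged point (36.9).

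Cdkn1b was open at its start and past its end in every library. The region at the start (chr6:134919907-134920816) stood at 47.6, 75.9 and 77.9 in Young WT, 60.1, 53.2 and 74.4 in Young Mlkl-/-, 66, 82.3 and 70.1 in Aged WT, then 71.0, 55.9 and 60.0 in Aged Mlkl-/-. The groups overlapped, with medians of 67.2 in young and 68.1 in aged lists. A stronger region stood 8.2 kb downstream of the start, 3.24 kb past the 3′ end of the gene (chr6:134928169-134929014), with medians of 84.0 in young and 85.3 in aged lists. Neither passed the test of age, at 0.03 ± 0.14 and 0.09 ± 0.12 (change ± SE, adjusted p = 0.922 and 0.718 in limma). A further region 6.8 kb downstream was called in 1 list, of Aged WT. Cdkn1c, an imprinted gene, was called at its start (chr7:143460804-143461402) in 11 of 12 full lists, the exception being Young Mlkl-/- replicate 3. Its percentiles at equal length were 15.9, 32.9 and 49.5 in Young WT, 60.4 and 50.5 in Young Mlkl-/-, 27.8, 66.5 and 58.3 in Aged WT, then 64.3, 58.8 and 32.1 in Aged Mlkl-/-. The groups overlapped, and the age change of 0.34 ± 0.23 did not pass (adjusted p = 0.416 in limma). Its 3 upstream regions were called in at most 3 full lists each.

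The INK4 genes ranged from starts called in every list to the p16 start, called in 1. The Cdkn2d start (chr9:21290810-21291751) stood at 83.8, 88.5 and 91.1 in Young WT, 96.9, 86.7 and 84.0 in Young Mlkl-/-, 96.2, 92.2 and 92.2 in Aged WT, then 89.5, 89.4 and 92.8 in Aged Mlkl-/-. The Cdkn2c start (chr4:109666573-109667421) was nearly as high but wider in spread, at 86.2, 85.9 and 85.0 in Young WT, 85.1, 70.8 and 94.8 in Young Mlkl-/-, 92.9, 94.8 and 59.7 in Aged WT, then 71.0, 64.8 and 88.8 in Aged Mlkl-/-. In both genes the groups overlapped. Both were flanked by regions called in all 12 lists, at the start of Kri1 for Cdkn2d, and at the start of Faf1 and in an exon of the non-coding 9630013D21Rik for Cdkn2c. Thus 5 of the 6 regions at these genes were called in every list, and the other, 430 bp upstream of another Cdkn2c start, in 3 full lists and 1 of equal length. The largest age changes in size were 0.19 ± 0.11 at the Kri1 start and -0.27 ± 0.15 in 9630013D21Rik (adjusted p = 0.301 and 0.292 in limma). Cdkn2b (chr4:89310256-89311375) was called at its start in all 12 lists, at percentiles of 23.3, 51.7 and 51.8 in Young WT, 50.7, 3.02 and 51.1 in Young Mlkl-/-, 60.9, 65.2 and 23.3 in Aged WT, then 35, 39.2 and 52.1 in Aged Mlkl-/-. Young Mlkl-/- replicate 2 was far below the rest, and the groups overlapped. The median was 50.9 in young and 45.6 in aged lists, and the age change was 0.08 ± 0.18 (adjusted p = 0.819 in limma).

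Cdkn2a has 2 annotated starts, and they differed. The ARF start (region chr4:89294497-89295984) was called in 1 Young WT list and in all 3 of each other group, by the full lists. The lists of equal length kept 5 of these 10 calls, at percentiles of 39.3 in Young WT, 52.5 in Young Mlkl-/-, 20.2 and 10.9 in Aged WT, then 20.2 in Aged Mlkl-/-. These were 2 young and 3 aged calls, and the change was 0.03 ± 0.32 (adjusted p = 0.972 in limma), with the widest standard error of the 21 regions tested. The p16 start was called in 1 full list, Aged Mlkl-/- replicate 3, with a score of 4.65 at the 7.46 percentile of that list, and in 0 lists of equal length. Age was therefore not tested at the p16 start. A region 3.6 kb upstream and another 5.9 kb downstream of it were called in 2 and 1 full lists. The stretches at the 3 starts of the Cdkn2a and Cdkn2b locus are shown because they are neighbours and span the range from a call in every list to a call in 1. Capitals mark NFY letters at the ARF start and the CRE letters at the Cdkn2b start.
Cdkn2b start, chr4:89311040-89311217, minus strand: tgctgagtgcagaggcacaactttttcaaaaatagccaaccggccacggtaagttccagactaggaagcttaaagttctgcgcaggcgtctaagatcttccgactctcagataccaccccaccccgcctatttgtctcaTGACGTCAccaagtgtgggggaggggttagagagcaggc
Cdkn2a ARF start, chr4:89294890-89295089, minus strand: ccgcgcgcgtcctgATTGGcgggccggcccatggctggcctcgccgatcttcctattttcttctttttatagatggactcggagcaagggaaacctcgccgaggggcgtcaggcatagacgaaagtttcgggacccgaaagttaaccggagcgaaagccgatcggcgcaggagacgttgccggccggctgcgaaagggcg
Cdkn2a p16 start, chr4:89282193-89282294, minus strand: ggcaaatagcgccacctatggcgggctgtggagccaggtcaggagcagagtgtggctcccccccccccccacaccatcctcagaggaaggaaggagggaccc

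At Trp53 the strongest region belonged to a neighbour. It lay 1.0 kb upstream, on the first exon of Wrap53 (chr11:69578962-69579689), the divergent gene whose product brings telomerase to Cajal bodies. Its percentiles were 82.2, 79.3 and 70.5 in Young WT, 82.7, 72.1 and 62.9 in Young Mlkl-/-, 41.3, 64.2 and 26.5 in Aged WT, then 52.0, 61.5 and 48.8 in Aged Mlkl-/-. The aged libraries were the lower, and 1 aged value, 64.2, lay above the lowest young value, 62.9. The change was -0.47 ± 0.14 (adjusted p = 0.0373 in limma), which did not pass the threshold of 0.01. The start of Trp53 itself (chr11:69580046-69580589) was called in 7 full lists, 3 young and 4 aged, and in 4 of equal length, at 18.0, 47.9, 16.7 and 26.3. A region 1.1 kb downstream, in an intron, was called in all 12 full lists and in 11 of equal length, and a region 8.3 kb upstream, in Wrap53, in 2 full lists, both aged. An intronic region 5.6 kb downstream (chr11:69585718-69586290) was called in the full lists of 3 Young WT, 1 Young Mlkl-/-, 1 Aged Mlkl-/- and 0 Aged WT libraries. Its age change was -0.49 ± 0.30 (adjusted p = 0.344 in limma), and in WT it was -0.88 ± 0.42 (adjusted p = 0.342). Of all regions 1.07% were called in at least 4 young and at most 1 aged full list, a pattern set after the values were seen, and this was the 1 region of the 35 with it. The Wrap53 and Trp53 starts and the middle of the intronic region are shown because they differ in how often and in which ages they were called or how high they ranked. Capitals mark NFY, GATA, RUNX and AP-1 letters on either strand, and the Wrap53 stretch held none of the motifs searched.
Wrap53 start, chr11:69579325-69579410, plus strand: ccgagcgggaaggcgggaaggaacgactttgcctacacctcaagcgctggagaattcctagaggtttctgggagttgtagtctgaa
Trp53 start, chr11:69580256-69580358, plus strand: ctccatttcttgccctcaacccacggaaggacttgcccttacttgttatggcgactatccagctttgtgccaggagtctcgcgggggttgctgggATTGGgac
Trp53 intron, chr11:69585880-69586079, plus strand: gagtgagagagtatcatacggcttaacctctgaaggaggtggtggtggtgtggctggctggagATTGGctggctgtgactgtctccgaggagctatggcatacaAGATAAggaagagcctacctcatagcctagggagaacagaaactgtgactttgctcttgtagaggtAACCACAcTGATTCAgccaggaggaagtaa

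Mdm2, whose product marks p53 for degradation, had 1 region, at its start (chr10:117709791-117711131). Its percentiles were 74.0, 57.8 and 84.1 in Young WT, 84.1, 87.7 and 74.7 in Young Mlkl-/-, 85.0, 78.1 and 71.8 in Aged WT, then 57.1, 80.5 and 90.3 in Aged Mlkl-/-. The groups overlapped, with medians of 79.4 in young and 79.3 in aged lists. The change was under 0.01 in size with an SE of 0.15 (adjusted p = 0.995 in limma).

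The 1 region that passed the test of age was assigned to Rb1 by distance and lay outside it. Past the 3′ end of this gene, in an intron of the neighbouring gene Rcbtb2 and of the overlapping non-coding gene Gm17233, stood a pair of regions. The distal one was lower in aged HSCs, and the proximal one had an age change above 0 that did not pass. The distal region (chr14:73175754-73176332, 7.62 kb past the end of Rb1 and 24.6 kb from the Rcbtb2 start) had percentiles of 61.1, 62.3 and 54.4 in Young WT and 17.5, 40.1 and 31.7 in Young Mlkl-/-. In the 3 Aged WT and 3 Aged Mlkl-/- lists of equal length it was not called. Every young library was therefore above every aged one. The change over both genotypes was -1.31 ± 0.20 (adjusted p = 0.000826 in limma). It was -1.51 ± 0.29 in WT (adjusted p = 0.0159) and -1.11 ± 0.29 in Mlkl-/- (adjusted p = 0.0586), neither of which passed 0.01. The region was not lost from aged HSCs, since all 12 full lists called it. There its percentiles were 70.4, 69.3, 56.4, 36.2, 60.5 and 31.7 in young lists and 32.1, 23.8, 33.7, 0.923, 3.05 and 33.8 in aged ones, so that the lowest young value fell among the aged. With full lists ranked in place of lists of equal length the change was -0.74 ± 0.18 (adjusted p = 0.00915 in limma). In a pool of cells, fewer open cells and less opening per cell cannot be told apart.

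The proximal region (chr14:73179006-73179575, 4.42 kb past the end of Rb1) was called in every list. Its percentiles were 34.8, 46.1 and 75 in Young WT, 45.2, 39.0 and 66.5 in Young Mlkl-/-, 87.5, 79.4 and 82.6 in Aged WT, then 72.3, 74.7 and 84.7 in Aged Mlkl-/-. The aged values were the higher but for Young WT replicate 3, which overlapped them. The change of 0.54 ± 0.14 (adjusted p = 0.0228 in limma) did not pass 0.01. The Rb1 start (chr14:73325549-73326483) did not pass, at -0.15 ± 0.17 (adjusted p = 0.661 in limma), with percentiles of 45.8, 23.1 and 63.8 in Young WT, 45.8, 25.3 and 64.8 in Young Mlkl-/-, 32.5, 22.5 and 47.1 in Aged WT, then 41.7, 16 and 48.9 in Aged Mlkl-/-. The middle 200 bp of both regions past the gene are shown because they are neighbours with age changes of opposite sign, of which only the distal one passed. The distal stretch held none of the motifs searched, and the capitals in the proximal stretch mark AP-1 letters.
Rb1 distal region, chr14:73175949-73176148, minus strand: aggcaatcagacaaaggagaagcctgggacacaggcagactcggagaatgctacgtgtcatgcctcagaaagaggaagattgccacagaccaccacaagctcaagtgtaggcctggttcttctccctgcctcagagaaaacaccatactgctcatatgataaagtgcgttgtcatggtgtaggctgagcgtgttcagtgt
Rb1 proximal region, chr14:73179157-73179356, minus strand: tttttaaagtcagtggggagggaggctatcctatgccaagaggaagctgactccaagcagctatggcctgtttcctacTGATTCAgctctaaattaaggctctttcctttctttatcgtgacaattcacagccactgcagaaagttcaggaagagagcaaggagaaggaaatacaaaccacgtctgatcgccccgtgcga

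**Figure D4:**
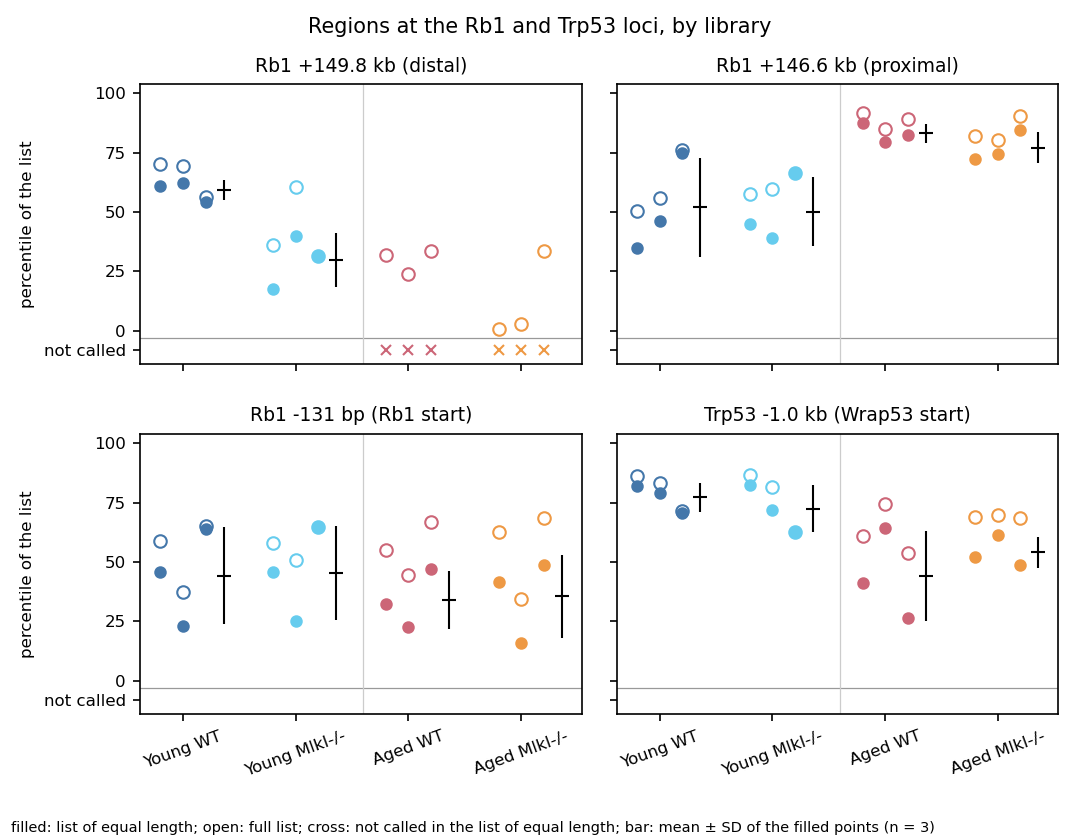
Percentile of 4 regions in each library (y axis) by group (x axis), with filled points for the lists of equal length, open points for the full lists, crosses for no call at equal length and black bars for the mean ± SD of the filled points (n = 3). The distal Rb1 region is not called in any aged list of equal length and is in every full list, while the proximal region lies at 72.3 to 87.5 in aged lists and the Rb1 start overlaps throughout.

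Further into Rb1, a region 35.7 kb downstream of the start was called in 8 full lists, 4 young and 4 aged, and regions at 81.6 and 91.3 kb in 1 Aged WT list each. A region 1.1 kb downstream of the start, in an intron (chr14:73324441-73325375), was called in 0 young full lists, 1 Aged WT and 3 Aged Mlkl-/- full lists, with scores from 3.09 to 5.29. None of these 4 calls was among the highest 35714 summits of its list, and aged lists were longer, so the region was not tested. Of all regions 3.31% were called in 0 young and at least 4 aged full lists, a pattern also set after the values were seen, and this was the 1 of the 35 with it.

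The test of age asked which regions change as HSCs grow old. It was fitted in limma on the 37886 regions called in at least 3 lists of equal length, of which 21 belonged to the 10 genes. Over both genotypes 1 of the 21, the distal Rb1 region, passed an adjusted p of 0.01, and it was lower in aged HSCs. The 6 young and 6 aged values did not overlap for the same 1 of 21, against 3.88% of all regions. At an unadjusted p under 0.05 there were 3 of 21, or 14.3% against 22.1%, namely both regions past Rb1 and the Wrap53 start. The median change of the 21 was -0.02 and that of all regions -0.01, with 9 above 0 and 12 below. The other 18 changes lay between -0.49 and 0.34, with adjusted p from 0.292 to 0.995. In WT alone 0 of 21 passed, against 0.201% of all regions, with 5 at an unadjusted p under 0.05, or 23.8% against 14.6%. In Mlkl-/- alone 0 of 21 passed, against 0.15%, with 2 at an unadjusted p under 0.05, or 9.52% against 14.4%. Both sets included the distal Rb1 region. With the length of the lists as a covariate the distal Rb1 change was -1.33 ± 0.28 and no longer passed (adjusted p = 0.0226 in limma). With the presence of summits at Y-linked genes as a covariate, an alternative chosen after seeing the data, it was -1.32 ± 0.25 (adjusted p = 0.00933), while the proximal change was 0.34 ± 0.16 (adjusted p = 0.243) and that at the Wrap53 start -0.36 ± 0.16 (adjusted p = 0.237).

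**Figure D5:**
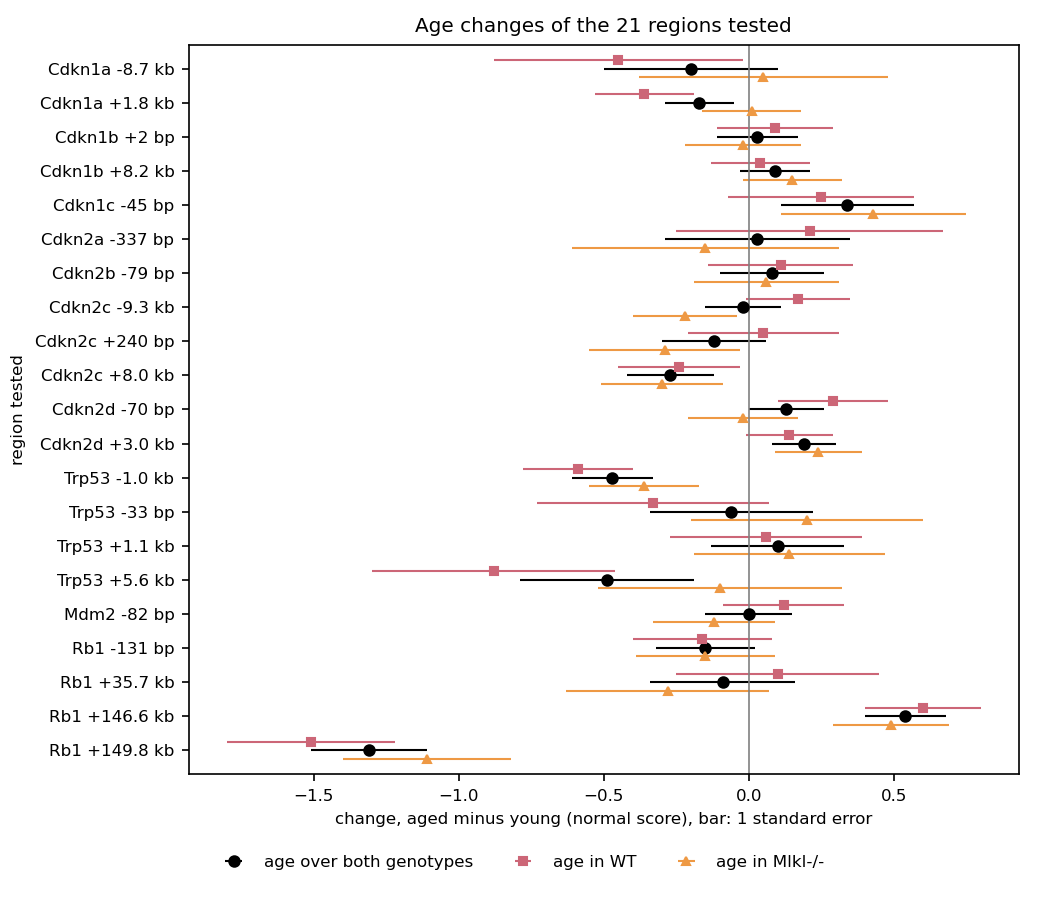
Change with age in normal score (x axis, aged minus young) of the 21 regions tested (y axis), over both genotypes (black circles), in WT (red squares) and in Mlkl-/- (orange triangles), with bars of 1 standard error. The distal Rb1 region at the bottom, at -1.31, stands apart on the left, the proximal one lies at 0.54, and 19 of the 21 black circles lie within 0.5 of 0.

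Loss of Mlkl moved none of the regions past the threshold. At 3 months 0 of 21 passed in limma (0.0% of all regions), with changes from -0.47 at the Trp53 intronic region to 0.31 at the Faf1 start. At 18 months 0 of 21 passed (0.0% of all regions), from -0.38 to 0.64 at the Trp53 start. Over both ages 0 of 21 passed (0.0% of all regions), from -0.22 at the distal Rb1 region to 0.38 at the Trp53 start. The difference in age change between genotypes passed for 0 of 21 (0.0% of all regions), from -0.39 to 0.77. At an unadjusted p under 0.05 there were 0 of 21 in each of these 4 comparisons, against 5.37%, 5.10%, 6.22% and 4.80% of all regions. Standard errors ran from 0.11 to 0.32 over both ages and from 0.15 to 0.46 at 1 age. For the difference in age change they ran from 0.21 to 0.65. Shifts well above these could also be missed at this threshold. The distal Rb1 age change in WT, -1.51 ± 0.29, did not pass (adjusted p = 0.0159 in limma). At the distal Rb1 region the Young Mlkl-/- percentiles (17.5 to 40.1) all lay below those of Young WT (54.4 to 62.3). The test of that difference gave -0.42 ± 0.29 (adjusted p = 0.941 in limma). The difference in age change there was 0.40 ± 0.41 (adjusted p = 0.965 in limma), and 0.37 ± 0.24 at the Cdkn1a intron (adjusted p = 0.965).

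Other genes of the path were read from a list of 46: cyclins and CDKs, RB relatives and E2F factors, p53 regulators, p53 target genes, and Polycomb and other regulators of the INK4 locus. They held 185 regions, of which 116 were tested and 2 passed over both genotypes, 1 higher and 1 lower in aged HSCs. This is 1.72%, below the 2.72% of all regions tested. An intronic region of Usp7 (chr16:8748037-8748626), the gene of a ubiquitin protease that acts on MDM2 and p53, was called, at equal length, in 1 young list and in all 6 aged ones. Its percentile was 9.26 in that young list, Young Mlkl-/- replicate 1, and 38.0, 56.3 and 58.0 in Aged WT, then 53, 29.7 and 22.6 in Aged Mlkl-/-, a change of 1.12 ± 0.23 (adjusted p = 0.00519 in limma). By the full lists, 3 young and all 6 aged libraries called the Usp7 region. An intronic region of Ccnd3 (chr17:47523022-47523725), the gene of cyclin D3, went the other way. It stood at 33.8, 54.4 and 47.3 in Young WT and 26.0, 20.3 and 26.8 in Young Mlkl-/-, and was called in no aged list of equal length, a change of -1.17 ± 0.21 (adjusted p = 0.00183 in limma). In the full lists 3 aged libraries still called it. The Usp7 call was lost on leaving out, in turn, any replicate of Young WT or Aged WT, Young Mlkl-/- replicate 2, or Aged Mlkl-/- replicate 1 or 2, at adjusted p from 0.01 to 0.0178 in limma. The Ccnd3 call held without each library, at 0.00298 to 0.0062, but was lost with list length as a covariate (adjusted p = 0.0456 in limma), with Y-linked summits as a covariate (0.0115) and in the 9 libraries whose file names share a tag (0.0135). The Usp7 call was lost in the same 3 settings (0.0708, 0.0228 and 0.0524) and with the replicate number as a block (0.0106). No region of the RB relatives and E2F factors (23 tested), p53 target genes (29) or INK4 regulators (15) passed. The median change of the 5 lists ran from -0.03 to 0.07, beside -0.01 for all regions. At the starts, 13 of 14 p53 target genes and all 5 INK4 regulators were called in 12 full lists. So were 8 of 9 RB relatives and E2F factors, 7 of 9 p53 regulators, and 6 of 9 cyclins and CDKs. Over all protein-coding genes the share was 49.5%. At equal length the counts were 12, 3, 7, 5 and 6 in that order, beside 42.4% of protein-coding genes. Ccnd2 and Trp63 were called at their starts in no list.

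In sequence the 35 regions were rich in GC, with a median of 61.5% in the 200 bp around the highest summit, against 54.0% for all regions tested. For the 12 at starts the median was 65.5%, and for the 23 farther away 55%. All 11 motifs were searched on both strands in the same windows. Shares are set against all regions tested, while the 35 include regions called too seldom to be tested. The SP/KLF letters GGGCGG were in 18 of 35 windows, 51.4% against 26.0% of all regions tested, and the NFY letters CCAAT in 12, 34.3% against 23.2%. The AP-1 letters TGANTCA were in 5 of 35, 14.3% against 10.1%, among them the Cdkn1a intron, the Trp53 intron and the proximal Rb1 region. RUNX (TGTGGTT) was in 3 of 35, 8.57% against 10.5%. The letters known for binding of GATA factors, written here as AGATAA, were in 1 of 35, 2.86% against 8.55%. The CTCF core was in 3, 8.57% against 6.88%, CRE (TGACGTCA) in 1, 2.86% against 1.31%, ETS (CCGGAAG) in 1, 2.86% against 6.61%, and E2F (TTTGGCGC or TTTCGCGC) in 1, 2.86% against 0.504%. The NRF1 motif was in 0, against 2.60%, and the p53 element in 0, against 0.111%. These are matches of letters, and binding was not measured. A base can belong to more than 1 motif.

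By rank over the 12 libraries, the gene starts most like the distal Rb1 region were those of Rtn2 (Pearson r = 0.983), Haao (0.972) and Clec10a (0.970), out of 12291 starts. The 12 points share their split into young and aged, and where a region is not called they share its floor, so these values are a description.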

How the data were processed

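ATAC-seq libraries of sorted HSCs were sequenced by the authors, and per the submitters' processing notes the tools included Bowtie2 2.5.3, MACS2 2.2.7.1, bedtools 2.31.0 and edgeR 3.30.3. The deposited files list peak summits of each library on mm10, with a score that is the −log10 of the q-value at the summit against the library's own background. The lowest deposited score was 2.0, while the study's methods state a q-value of 0.001, so scores of at least 3 were used. Scores depend on the depth of a library, which is unknown, so only ranks within a list were compared.

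Regions were built by merging windows of 250 bp around the summits and annotated with GENCODE vM21, and sequences were read with pysam 0.24.0 from the RefSeq genome of the same build. Normal scores of ranks in lists of equal length, with ties at the end of a list broken at random, were compared in limma 3.58.1 (R 4.3.3) over all 12 libraries and 4 groups, without a replicate term, for 7 contrasts. Other steps used Python 3.11.15, numpy 2.4.6, scipy 1.17.1 and pandas 2.3.3, and the scripts were tested on simulated data. All 10 genes were named, with each region at a start, the largest age change of each gene and each region that passed or did not overlap between ages. The genes and lists were chosen with earlier results of these data known. Alternatives covered list length, score minimum, window, minimum of lists, scale, ties, flank, threshold, covariates and libraries. Some marker genes are not reported here.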

Additional observations from a re-analysis of the deposited data

How the results depend on the processing

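The fall of the distal Rb1 region with age passed without each library in turn (-1.35 to -1.20, adjusted p 0.00164 to 0.00491 in limma), and among the 9 libraries whose file names share a tag (-1.27, adjusted p = 0.0096). With list length as a covariate no region of the 10 genes passed (0), nor with a flank of 2 kb (0), which leaves that region out. At an adjusted p under 0.05 in limma there were 3 of 21 over both genotypes and 1 of 21 in WT. Of all 37886 regions tested, 2938 and 721 passed at that level. With that covariate the distal change was still -1.33, with a wider standard error. Libraries with the same replicate number did not deviate together (18 pairs, r from -0.301 to 0.128, 1 over 0.1), so the numbers were not taken as pairs. With the replicate number as a block the distal change was -1.31 (adjusted p = 0.00265), and 1 of the pathway regions passed in place of 2. The block changed no other call at the 10 genes. The pathway count was 0 with list length as a covariate, 0 with Y-linked summits as a covariate, 0 in the 9 libraries, and 1 to 2 without each library. The difference in calls per list, 2.5 in full lists, was -1.5 at equal length and -1.67 with another seed for ties.

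Changes near 0 turned sign. The ARF start of Cdkn2a went from 0.03 to -0.48 with Y-linked summits as a covariate (chosen after seeing the data, as below), -0.09 with all deposited summits, -0.13 with scores of at least 5, and -0.14 to 0.23 without each library. Cdkn2b was -0.09 with Y-linked summits and -0.02 to 0.19 without each library. The region past Cdkn1b was -0.09 with list length. Mdm2 was 0.07 with Y-linked summits, 0.00 with windows of 100 bp, 0.20 in the 9 libraries and -0.10 to 0.11 without each. The upstream Cdkn1a region was 0.13 in full lists and 0.06 with Y-linked summits. The cause was not tested. Over all regions, 1029 passed the test of age, against 78 with list length, 279 in the 9 libraries, 330 with Y-linked summits, 2030 in full lists and 2938 at 0.05. In WT 76 passed and in Mlkl-/- 57, against 295 and 249 in full lists, 134 and 96 with regions called in at least 6 lists, 27 and 12 with the block, 4 and 10 with list length, 3 and 5 in the 9 libraries, 0 and 1 in separate fits of the groups compared, 0 and 0 on percentiles, and 721 and 559 at 0.05. In WT there were also 49 with scores of at least 5 and 45 with windows of 100 bp. Without each library in turn the counts ran from 667 (without Aged Mlkl-/- replicate 1) to 1049 over both genotypes, from 1 (without Aged WT replicate 1) to 98 in WT, and from 5 (without Aged Mlkl-/- replicate 1) to 61 in Mlkl-/-.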
